A study of Lytechinus variegatus with 23 samples.

Results

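Sea urchin embryos exposed to alizarin were compared between 2 hours of development: the 3 alizarin libraries of 24 hours post fertilisation (hpf) were set against the 3 alizarin libraries of 12 hpf. These 6 libraries, chosen by the treatment and hour in their labels, are 6 of the 23 libraries of the series. The embryos were whole Lytechinus variegatus, a sea urchin, collected at 12, 18, 24 and 30 hpf as controls or under alizarin. The 3 control libraries of 12 hpf and the 3 of 24 hpf serve as the reference for each change, and the 18 hpf libraries (2 alizarin, 3 control) serve as an intermediate point. Replicates are named A, B and C, and all values per library are given in that order (alizarin at 18 hpf has B and C alone). The dose, the hours of exposure and the origin of the replicates (cross, culture or batch) are not given in the sources used here, so p-values reflect the spread among libraries alone, whatever its source, technical steps included.

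Alizarin red is a stain for calcium deposits such as bone and spicules. In sea urchin embryos, primary mesenchyme cells secrete a calcite skeleton on a matrix of spicule proteins, and growth factors from the overlying ectoderm, such as Vegf and Fgf, place the skeleton. The hours studied span gastrulation, when the gut invaginates, germ layers take on their fates and neurons, pigment cells, muscle and coelomic pouches arise. Symbols below are those of the matched gene of another urchin, Strongylocentrotus purpuratus, and roles are known mainly from that species.

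The 6 alizarin libraries held between 8468933 and 10418758 counted reads, and between 20164 and 21768 genes had at least 1 read in each. In a principal component analysis of these libraries the first component, with 55.6% of the variance, placed all 12 hpf libraries on one side and all 24 hpf libraries on the other. The second component, with 14.6%, set alizarin 24 hpf replicate C (80.2) apart from replicates A (-33.9) and B (-49.7). That library also had the highest share of reads in ribosomal protein genes of the 6, 17.2%, against 10.5% and 11.3% in its group and 2.14%, 2.34% and 4.12% at 12 hpf. In controls this share was 2.54%, 8.56% and 8.65% at 12 hpf and 14.9%, 17.4% and 19.7% at 24 hpf. The part of this share in the results below was not tested, and values that hinge on replicate C are given without it.

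Of 18419 genes tested with edgeR's quasi-likelihood test, 2766 rose and 1983 fell from 12 to 24 hpf under alizarin at an adjusted p under 0.05, which is 25.8% of genes (15.0% higher and 10.8% lower). Both shares are the reference for the alizarin counts of each gene list below. Rises were larger than falls: 1635 genes rose at least 4-fold and 404 fell at least 4-fold. In 4422 of the 4749 called genes the 2 groups did not overlap, against 36.2% of all genes tested. The median log2 change over all genes was -0.02. The same test in controls called 33.7% of genes, 3396 higher (18.4%) and 2812 lower (15.3%).

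The developmental change under alizarin largely ran the same way as that of controls, with which it shares no library. Of the genes that rose under alizarin, 1959 also rose in controls, which is 70.8% of the alizarin list and 57.7% of the control list. Of those that fell, 1354 also fell in controls, which is 68.3% of the alizarin list and 48.2% of the control list. Only 10 genes were called in opposite directions. Genes that rose under alizarin had a median log2 change of 2.35 there and 2.03 in controls, whereas genes that rose in controls had 2.37 in controls and 1.62 under alizarin. Each list is larger in the treatment that chose it, so neither pair of medians is a comparison of treatments. Across genes the log2 changes of both treatments had Pearson's r = 0.71 and Spearman's rho = 0.67, as a description, since genes are not independent replicates.

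**Figure D1:**
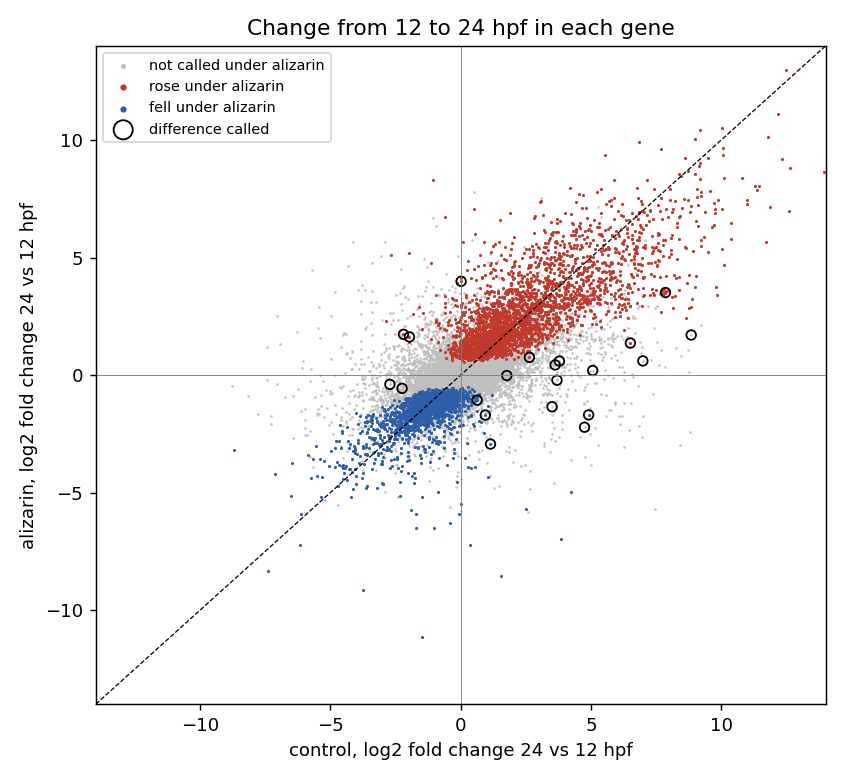
Log2 change from 12 to 24 hpf in each of the 18419 genes tested, controls on the x axis and alizarin on the y axis; red and blue points are the 2766 genes that rose and the 1983 that fell under alizarin, black circles the 21 genes whose changes differed between treatments, and the dashed line marks equal change. Most coloured points lie in the quadrants where both treatments moved the same way.

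The largest rises came from near absence at 12 hpf. Btub1 (L_var_22567), a beta tubulin, the building block of microtubules, measured 0.473, 0 and 0.296 CPM at 12 hpf and 315, 193 and 715 CPM at 24 hpf (log2 change 10.51, SE 0.92, edgeR adjusted p = 1.65e-07). Aqp8 (L_var_17881), an aquaporin channel, measured 0.473, 0.672 and 0.394 CPM at 12 hpf and 241, 312 and 479.7 CPM at 24 hpf (log2 change 9.36, SE 0.64, edgeR adjusted p = 1.22e-08). Both also rose in controls (log2 change 10.02 and 10.06). Anxa7_1 (L_var_24974), an annexin, a calcium-dependent membrane-binding protein, rose from 0, 0.288 and 0.493 CPM to 295, 423 and 344 CPM (log2 change 10.42, SE 0.91, edgeR adjusted p = 1.65e-07). Fabp2L2 (L_var_13541), named for an intestinal fatty acid binding protein, rose from 0.709, 0.864 and 0.6903 CPM to 464, 668 and 200.5 CPM (log2 change 9.18, SE 0.70, edgeR adjusted p = 4.88e-08), with its lowest 24 hpf value in replicate C. CPM here is read counts per 1000000 reads of a library after TMM scaling.

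Among the rest of the 10 largest rises, a pair of genes matched to Mgam_3, a maltase-glucoamylase of starch digestion, had 3 and 2 reads in all at 12 hpf, and rose 1312-fold with a 95% counting interval of 449 to 6367 (L_var_24549) and 1243-fold with a 95% counting interval of 344 to 10265 (L_var_24669). Because they share a symbol, reads of near-identical copies may be split between them. Srcr212 (L_var_03944), of the scavenger receptor cysteine-rich family, also had 3 reads at 12 hpf and reached 49.3, 67.8 and 42.2 CPM, a ratio of 601-fold with a 95% counting interval of 205 to 2917. Fpgs_6, Susd2-3 and a gene matched to a Myo18A homolog completed the 10 largest rises, and all 10 also rose in controls.

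The largest falls were less even between libraries. Aplysia/Adp/Ribcyc (L_var_23819) is matched to an ADP-ribosyl cyclase, which makes the calcium-mobilising messenger cyclic ADP-ribose. All its 24 hpf libraries lay below all its 12 hpf libraries, with 88.6, 61.8 and 200.3 CPM at 12 hpf and 3.91, 4.55 and 6.07 CPM at 24 hpf (log2 change -4.60, SE 0.44, edgeR adjusted p = 4.1e-07). One of 3 genes matched to the zinc finger protein Z474 (L_var_21467) fell from 15.1, 30.7 and 22.2 CPM to 0.0753, 0.0771 and 1.95 CPM (log2 change -5.13, SE 0.90, edgeR adjusted p = 0.000308), and it also fell in controls (log2 change -6.51). MibL11 (L_var_21728), named for the Notch pathway ubiquitin ligase mindbomb, had no read in any 24 hpf library and 0.866, 0.09597 and 20.02 CPM at 12 hpf. That is at least 26.8-fold lower against a floor of 3 counts per library, but nearly all its 12 hpf signal lay in replicate C, and without that library the adjusted p of edgeR was 0.300. Its call was also lost without any 1 of the 24 hpf libraries (0.0959 to 0.109). Fn3f_8 (L_var_02754) likewise rested on replicate A of 12 hpf, with 40.6, 1.44 and 0.887 CPM there, and without it the adjusted p of edgeR was 0.152.

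The genes of the spicule matrix and of the skeletogenic cell surface were called in both directions under alizarin, as genes were in general. Of this list, 8 of 40 members tested rose, 7 fell and 25 did not pass the test, against 15.0% higher and 10.8% lower over all genes. Its median log2 change was 0.07 against -0.02 over all genes. The sign of this median depended on 1 library: without alizarin 12 hpf replicate B it was -0.27, with 6 members that rose and 9 that fell, while without 12 hpf replicate C it was 0.38 and without 24 hpf replicate C 0.03. In controls 14 rose and 3 fell, with a median of 0.79. All 8 members that rose under alizarin also rose in controls, while 3 of the 7 that fell also fell there. In bulk RNA, fewer cells of a type and less RNA per cell cannot be told apart.

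Among the rising members, Msp130r4 (L_var_22341), of the family of the primary mesenchyme surface glycoprotein Msp130, measured 0.236, 0.4798 and 0 CPM at 12 hpf and 11.97, 17.3 and 16.8 CPM at 24 hpf (log2 change 5.93, SE 0.52, edgeR adjusted p = 1.65e-07). Sm30A (L_var_26913), a spicule matrix protein, measured 132, 15.8 and 131 CPM at 12 hpf and 728, 1073 and 247 CPM at 24 hpf (log2 change 2.88, SE 0.81, edgeR adjusted p = 0.0125). Its 24 hpf values ranged widely, with the lowest in replicate C, and without alizarin 24 hpf replicate B it was just outside the threshold, with an adjusted p of 0.0515 by edgeR. Sm50 (L_var_27181), another matrix protein, measured 128, 57.5 and 218 CPM at 12 hpf and 156, 150.8 and 187 CPM at 24 hpf, and its groups overlapped (log2 change 0.29, SE 0.41, edgeR adjusted p = 0.652). In controls Sm50 rose from 258 ± 75.5 to 675 ± 200.01 CPM (SD, n = 3, log2 change 1.39, SE 0.42, edgeR adjusted p = 0.0147), but the difference between its 2 changes was not called (edgeR adjusted p = 0.435). The control rise was lost without control 12 hpf replicate A (edgeR adjusted p = 0.0623) and without control 24 hpf replicate C (0.0563).

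Several surface and matrix genes fell. P19 (L_var_00284), a small protein of the skeletogenic cells, measured 1824, 1675 and 2853 CPM at 12 hpf and 457, 435 and 419.8 CPM at 24 hpf (log2 change -2.28, SE 0.35, edgeR adjusted p = 7.22e-05), and Msp130 itself (L_var_22165) measured 2126, 805 and 1756 CPM at 12 hpf and 509, 581 and 578 CPM at 24 hpf (log2 change -1.49, SE 0.36, edgeR adjusted p = 0.00433). Both groups were separate for each of these genes. P19 also fell in controls (log2 change -1.64), whereas Msp130 was not called there (log2 change -0.20, edgeR adjusted p = 0.689). Msp130r1 (L_var_22166) fell by nearly the same amount in both treatments, with log2 changes of -2.45 under alizarin and -2.47 in controls.

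Msp130r2, C-lectin/PMC1 and Sm30F were the list members whose change differed between treatments. Msp130r2 (L_var_22350) measured 376, 247 and 235 CPM at 12 hpf and 96.1, 83.6 and 84.4 CPM at 24 hpf under alizarin (log2 change -1.70, SE 0.37, edgeR adjusted p = 0.00181), while controls went up from 345 ± 32.4 to 665 ± 234 CPM (SD, n = 3, log2 change 0.95, SE 0.36, edgeR adjusted p = 0.0482). C-lectin/PMC1 (L_var_26903), a C-type lectin of skeletogenic cells, measured 33.5, 6.62 and 37.9 CPM at 12 hpf and 3.39, 2.62 and 4.22 CPM at 24 hpf under alizarin (log2 change -2.93, SE 0.58, edgeR adjusted p = 0.000869), with 30.2 ± 6.31 and 66.96 ± 29.3 CPM in controls (SD, n = 3). The control change of C-lectin/PMC1 was not called (log2 change 1.15, SE 0.53, edgeR adjusted p = 0.102). Sm30F (L_var_26911), a spicule matrix gene, measured 7.56, 1.92 and 10.4 CPM at 12 hpf and 0.0753, 3.62 and 0.433 CPM at 24 hpf under alizarin and did not pass (log2 change -2.22, SE 0.93, edgeR adjusted p = 0.0878), while controls rose from 11.8 ± 4.64 to 318 ± 178 CPM (SD, n = 3). The difference of changes was -2.65, -4.08 and -6.97 on the log2 scale, each with an edgeR adjusted p of 0.0433. The control rise of Msp130r2 was lost without any 1 control library other than 24 hpf replicate A, with an edgeR adjusted p of up to 0.224. Each of these 3 difference calls sat near the threshold, and leaving out 1 library ended it in 8 or 9 of 12 such fits.

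**Figure D2:**
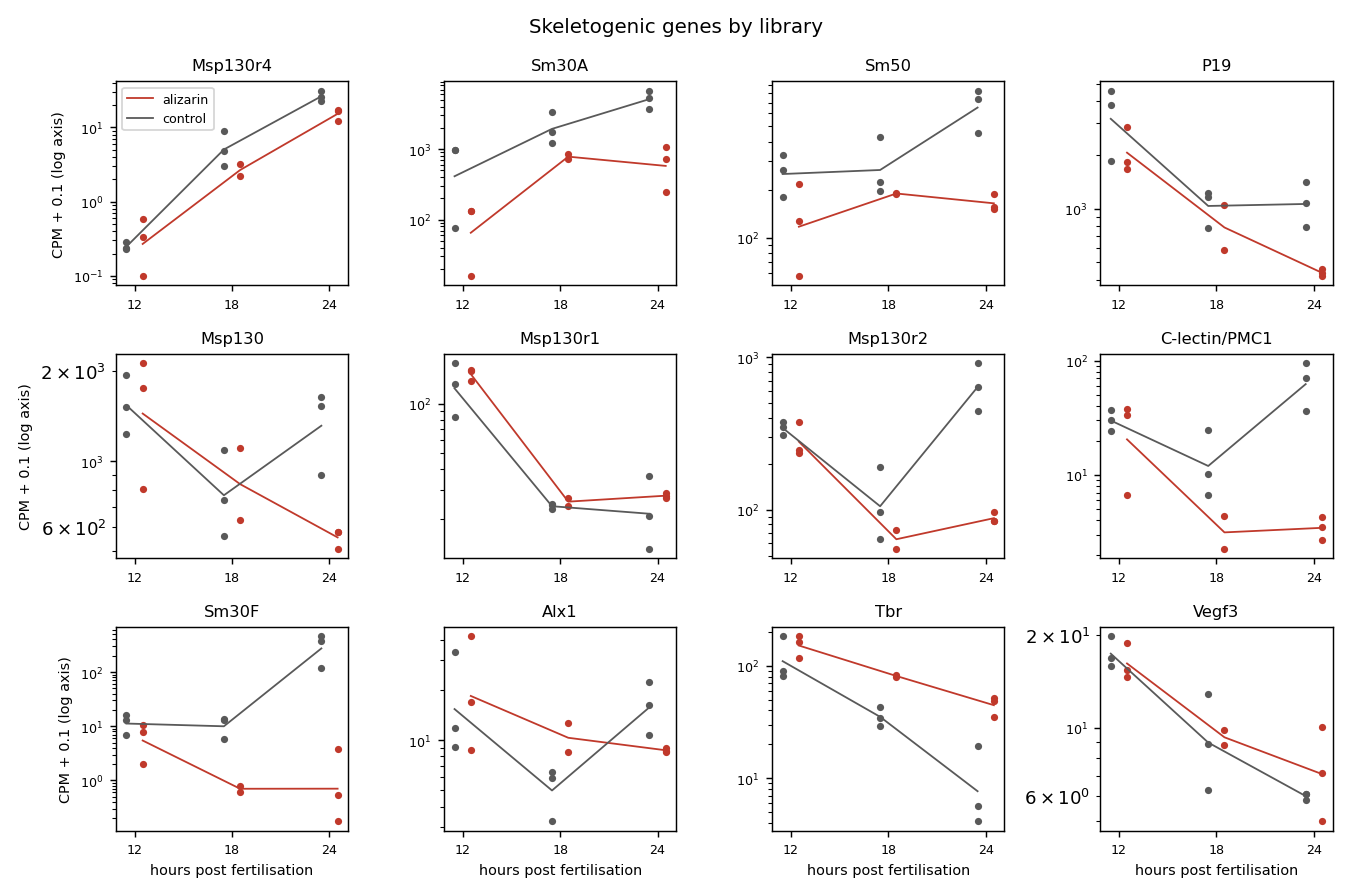
CPM plus 0.1 on a log axis for 12 skeletogenic genes by hours post fertilisation, each point 1 library and each line the geometric mean of its treatment (alizarin red, control grey). Msp130r4 climbs in both treatments, and Msp130r2, C-lectin/PMC1 and Sm30F end lower in all 3 alizarin libraries than in any control library of 24 hpf.

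Among the regulators and signals upstream of the skeleton, falls outnumbered rises, in controls too. Of the skeletogenic regulators, 2 of 18 members tested rose, 9 fell and 7 did not pass the test, with a median log2 change of -1.10. In controls 2 rose and 6 fell, and no member of this list had a called difference between treatments. Tbr (L_var_02106), a T-box factor of the skeletogenic gene network, measured 161, 182 and 118 CPM at 12 hpf and 51.6, 48.5 and 35.2 CPM at 24 hpf (log2 change -1.77, SE 0.43, edgeR adjusted p = 0.00433), with 9.55 ± 8.29 CPM (SD, n = 3) left in controls at 24 hpf. FoxB (L_var_10986), a forkhead factor of the same network, measured 34.7, 24.3 and 79.6 CPM at 12 hpf and 6.02, 6.399 and 6.498 CPM at 24 hpf (log2 change -2.87, SE 0.44, edgeR adjusted p = 6.24e-05). Alx1 (L_var_16422), the factor that specifies the skeletogenic lineage, measured 41.8, 8.64 and 16.9 CPM at 12 hpf and 8.43, 8.48 and 8.88 CPM at 24 hpf, its groups overlapped, and it did not pass (log2 change -1.39, SE 0.51, edgeR adjusted p = 0.0522). The adjusted p of Vegfr10 (L_var_00558), the Vegf receptor of skeletogenic cells, was 0.0319 by edgeR with a log2 change of -0.95. It reached 0.143 without alizarin 24 hpf replicate C, and was also above the threshold without 12 hpf replicate A, 12 hpf replicate C or 24 hpf replicate B.

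Of the skeletal patterning signals, 3 of 26 members tested rose, 12 fell and 11 did not pass the test, with a median log2 change of -0.98, and in controls 4 rose and 13 fell. Nodal (L_var_26144), the ligand that specifies oral ectoderm, measured 149, 348 and 205 CPM at 12 hpf and 80.2, 66.9 and 85.5 CPM at 24 hpf (log2 change -1.59, SE 0.36, edgeR adjusted p = 0.00262). Chordin (L_var_21973), a Bmp antagonist, measured 39.3, 51.8 and 35.2 CPM at 12 hpf and 12.3, 15.3 and 14.7 CPM at 24 hpf (log2 change -1.58, SE 0.31, edgeR adjusted p = 0.000884), and both groups were separate for both genes. Vegf3 (L_var_00379), the ectodermal ligand that guides skeletogenic cells, measured 15.3, 18.7 and 14.5 CPM at 12 hpf and 9.93, 7.02 and 4.87 CPM at 24 hpf (log2 change -1.15, SE 0.31, edgeR adjusted p = 0.00982), with an adjusted p of 0.0524 by edgeR without alizarin 24 hpf replicate C. A pair of genes matched to Otp, a homeobox factor of the oral ectoderm above the skeletogenic clusters, went the other way from 2 reads each at 12 hpf, with ratios of 115-fold with a 95% counting interval of 31.4 to 953 (L_var_11067) and 96.05-fold with a 95% counting interval of 26.3 to 798 (L_var_11202).

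Genes of the Wnt signalling pathway moved both ways. Of the Wnt pathway, 8 of 25 members tested rose, 6 fell and 11 did not pass the test, and 7 of the 8 rises and all 6 falls were also called in that direction in controls. Wnt10 (L_var_02437) measured 0.788, 0.192 and 0 CPM at 12 hpf and 7.98, 11.6 and 9.42 CPM at 24 hpf (log2 change 4.75, SE 0.54, edgeR adjusted p = 2.75e-06), and Wnt6 (L_var_02312) measured 2.84, 1.82 and 5.13 CPM at 12 hpf and 29.6, 32.1 and 25.9 CPM at 24 hpf (log2 change 3.16, SE 0.50, edgeR adjusted p = 0.000102). Wnt3 and Wnt7 rose as well (log2 change 2.92 and 5.13), and the 24 hpf libraries were above all 12 hpf libraries for each of these ligands. The 6 falls, not named here, had log2 changes from -0.73 to -2.44.

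Ectodermal and neural regulators moved both ways. Of the ectoderm regulators, 4 of 22 members tested rose, 5 fell and 13 did not pass the test. Not (L_var_19596), a homeobox factor of the oral ectoderm, measured 325, 624 and 409 CPM at 12 hpf and 70.97, 74.01 and 169 CPM at 24 hpf (log2 change -2.11, SE 0.39, edgeR adjusted p = 0.000421). Of the apical and neural list, 9 of 24 members tested rose, 7 fell and 8 did not pass the test, and all 9 rises were also called in controls. The 7 falls became 3 without alizarin 24 hpf replicate B and 4 without 12 hpf replicate A or 24 hpf replicate A. ElavL (L_var_19020), an RNA-binding protein of the family that marks neurons in many animals, measured 1786, 1647 and 1691 CPM at 12 hpf and 275, 261 and 258 CPM at 24 hpf (log2 change -2.69, SE 0.23, edgeR adjusted p = 1.37e-07). Brn3 (L_var_00516), a POU factor of differentiating neurons, went up from 0.473, 0.9597 and 0.887 CPM to 18.8, 10.6 and 6.82 CPM (log2 change 3.96, SE 0.49, edgeR adjusted p = 6.54e-06). FoxQ2_1 (L_var_17029), a forkhead factor of the apical plate, measured 301, 557 and 356 CPM at 12 hpf and 38.8, 57.4 and 189 CPM at 24 hpf (log2 change -2.09, SE 0.56, edgeR adjusted p = 0.0084), with the highest 24 hpf value in replicate C.

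Gut genes were called in shares near those of all genes, 15.0% higher and 10.8% lower. Of the endoderm list, 10 of 52 members tested rose, 5 fell and 37 did not pass the test, with a median log2 change of 0.28 that became -0.25 without alizarin 24 hpf replicate C. Its falls numbered 3 without alizarin 12 hpf replicate A, 12 hpf replicate B or 24 hpf replicate B, and without 12 hpf replicate B its median was 0.05. Endo16 (L_var_26583), a secreted protein of the midgut, measured 236, 20.2 and 137 CPM at 12 hpf and 568, 1264 and 1671 CPM at 24 hpf (log2 change 3.15, SE 0.58, edgeR adjusted p = 0.000412). Alpl_1 (L_var_22504), an alkaline phosphatase, an enzyme used as a gut marker, measured 0.788, 0.192 and 0.0986 CPM at 12 hpf and 55.8, 75.6 and 67.4 CPM at 24 hpf (log2 change 7.40, SE 0.63, edgeR adjusted p = 1.31e-07). Cdx (L_var_01277), a homeobox factor of the hindgut, had 2 reads at 12 hpf and 4.44, 6.24 and 0 CPM at 24 hpf, so that replicate C overlapped the 12 hpf group, while controls reached 41.4 ± 12.8 CPM (SD, n = 3). No member of the endoderm list, Cdx included, had a called difference between treatments. FoxA (L_var_14241) and Gatae (L_var_01834), early endoderm factors, were not called, with log2 changes of -0.34 and 0.01.

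Mesodermal lists moved in different directions. Of the muscle and coelom list, 14 of 26 members tested rose, 2 fell and 10 did not pass the test, with a median log2 change of 1.68, or 1.14 with the 3 members that had a group at 0 set to their bounds. All 14 rises were also called in controls. FoxL1 (L_var_03436), a forkhead factor of mesoderm, measured 0.394, 0.384 and 0.197 CPM at 12 hpf and 18.5, 13.1 and 9.96 CPM at 24 hpf (log2 change 5.35, SE 0.51, edgeR adjusted p = 3.48e-07), and SoxE (L_var_17157), of the coelomic pouches, measured 1.497, 1.73 and 2.27 CPM at 12 hpf and 13.2, 20.4 and 17.8 CPM at 24 hpf (log2 change 3.22, SE 0.42, edgeR adjusted p = 1.28e-05). Msclact (L_var_19627), a muscle actin, measured 0.158, 0.384 and 0.0986 CPM at 12 hpf and 95.1, 89.1 and 86.5 CPM at 24 hpf (log2 change 8.66, SE 0.67, edgeR adjusted p = 6.75e-08), against 1417 ± 927 CPM in controls at 24 hpf (SD, n = 3), and the difference of changes did not pass (edgeR adjusted p = 0.0963).

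In a joint list of immune gene families and genes of blastocoelar cells, the immune-like cells of the body cavity, falls outnumbered rises. Of this list, 5 of 22 members tested rose, 9 fell and 8 did not pass the test. In controls 8 rose and 5 fell, and 5 rose without control 12 hpf replicate A. No member had a called difference between treatments. GataC (L_var_07655) measured 252, 166.6 and 133 CPM at 12 hpf and 19.9, 18.97 and 31.3 CPM at 24 hpf (log2 change -2.98, SE 0.32, edgeR adjusted p = 1.55e-06), and Scl (L_var_18807), a blood cell factor in vertebrates, measured 63.6, 20.2 and 20.1 CPM at 12 hpf and 2.26, 1.85 and 2.92 CPM at 24 hpf (log2 change -3.89, SE 0.47, edgeR adjusted p = 5e-06). A pair of genes matched to Ese, an Ets factor, went opposite ways, with log2 changes of -2.06 (L_var_15967) and 2.97 (L_var_15965). Of the pigment list, 12 of 53 members tested rose, 4 fell and 37 did not pass the test, and 7 of its 12 rises were sulfotransferases of the Sult1 family. Pks1 (L_var_23510), the polyketide synthase of pigment synthesis, was not called (log2 change 0.55), nor was its regulator Gcm (L_var_24790, log2 change -1.17). Pks2 (L_var_00620), a second polyketide synthase, fell (log2 change -1.62, SE 0.47, edgeR adjusted p = 0.0149), though not without alizarin 24 hpf replicate C (edgeR adjusted p = 0.0674).

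Called genes of motile cilia, the beating hairs that drive swimming, fell with 1 exception, Dynlc2-5b. Of that list, 1 of 65 members tested rose, 19 fell and 45 did not pass the test, with a median log2 change of -0.57, while in controls 15 rose and 7 fell with a median of 0.18. The control rises became 9 without control 12 hpf replicate B and 20 without 12 hpf replicate A. Tektin2 (L_var_24963), a filament protein of ciliary microtubules, measured 981, 1675 and 1265 CPM at 12 hpf and 262, 271 and 399 CPM at 24 hpf (log2 change -2.07, SE 0.28, edgeR adjusted p = 1.75e-05). Ccdc135 (L_var_13650), matched to a coiled-coil protein of motile cilia, measured 298, 701 and 622 CPM at 12 hpf and 112, 104 and 106 CPM at 24 hpf (log2 change -2.33, SE 0.31, edgeR adjusted p = 1.57e-05). Both also fell in controls (log2 change -1.26 and -1.54), and the groups did not overlap under alizarin. Ccdc39 (L_var_24062), a ruler protein of the ciliary axoneme, measured 146.9, 153 and 168 CPM at 12 hpf and 69.02, 73.8 and 80.7 CPM at 24 hpf (log2 change -1.07, SE 0.23, edgeR adjusted p = 0.00167), while controls rose from 81.4 ± 23.5 to 126 ± 34.3 CPM (SD, n = 3, log2 change 0.63, SE 0.23, edgeR adjusted p = 0.0364). That control rise was lost in 4 of the 6 fits without 1 control library, with an edgeR adjusted p of up to 0.195.

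Ccdc39 was the 1 cilia member whose changes differed between treatments (difference -1.70 on the log2 scale, edgeR adjusted p = 0.0433), a call that ended in 9 of the 12 fits without 1 library. At an unadjusted p under 0.05, 28 of 65 members differed, all with the alizarin change below the control change, against 6.89% of all genes in that direction. Other lists were one-sided too: 10 of 40 skeletal matrix and surface members and 9 of 71 cell cycle members differed, all below. For ribosomal proteins it was 12 of 81, none below. The cilia list's share of all reads was 1.01%, 1.48% and 1.14% at 12 hpf and 0.658%, 0.629% and 0.51% at 24 hpf under alizarin. In controls it was 1.06%, 0.594% and 0.519% at 12 hpf and 0.549%, 0.552% and 0.603% at 24 hpf, so that 2 of 3 control libraries of 12 hpf were already near the level of 24 hpf. Those 2 libraries were also the ones with 8.56% and 8.65% of reads in ribosomal protein genes, and the part of that in the cilia difference was not tested.

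Ribosomal protein genes were the list with the highest share of rises: 71 of 81 members tested rose, 0 fell and 10 did not pass the test, with a median log2 change of 2.36. In controls 30 rose and 1 fell, with a median of 1.34. The median level of the list in controls was 7.72, 10.1 and 10.05 log2 CPM at 12 hpf and 10.8, 10.9 and 11.3 at 24 hpf. Under alizarin it was 7.22, 7.66 and 8.62 at 12 hpf and 9.76, 9.81 and 11.2 at 24 hpf. Control 12 hpf replicates B and C were thus already above alizarin 24 hpf replicates A and B, and the part of this in the 2 counts of rises was not tested. The control rises became 8 without control 12 hpf replicate A, 9 without 24 hpf replicate C and 14 without 24 hpf replicate B. Rps3 (L_var_00432), of the small subunit, measured 385, 345 and 843 CPM at 12 hpf and 2707, 3049 and 3566 CPM at 24 hpf (log2 change 2.57, SE 0.48, edgeR adjusted p = 0.000482), and Rpl8 (L_var_23856), of the large subunit, measured 408, 402 and 890.1 CPM at 12 hpf and 2386, 3177 and 5249 CPM at 24 hpf (log2 change 2.67, SE 0.54, edgeR adjusted p = 0.00107). For both, replicate C was the highest library at each hour and the groups did not overlap. Without alizarin 24 hpf replicate C, 49 members rose and the median was 1.74. None of the 81 members had a called difference between treatments. At an unadjusted p under 0.05, 12 differed, all with the alizarin change above the control change. Over all genes 13.1% differed in either direction and 6.89% with the alizarin change below, so the share above is smaller than 13.1%.

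In the respiratory chain and protein folding lists rises outnumbered falls, though most members tested did not pass the test. Of the respiratory chain, 21 of 56 members tested rose, 2 fell and 33 did not pass the test, against 15.0% higher and 10.8% lower over all genes. Its median log2 change of 0.65 became 0.30 without alizarin 24 hpf replicate C. In controls 16 of its members rose and 6 fell, with a median of 0.03. Sdhc (L_var_15019), a subunit of succinate dehydrogenase, measured 5.04, 8.45 and 10.1 CPM at 12 hpf and 34.2, 32.8 and 47.2 CPM at 24 hpf (log2 change 2.28, SE 0.28, edgeR adjusted p = 7.96e-06). Of the heat shock and folding list, 19 of 75 members tested rose, 9 fell and 47 did not pass the test, and the chaperonin subunits Cct3 (L_var_09955) and Cct5 (L_var_07622) were among the rises (log2 change 1.93 and 1.76). The list's median log2 change was 0.19, which became -0.01 without alizarin 12 hpf replicate A and 0.05 and 0.06 without 24 hpf replicates A and B. In controls 21 rose and 19 fell, with a median of -0.16.

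Cell cycle genes moved both ways, with rises near the share of all genes. Of that list, 12 of 71 members tested rose, 15 fell and 44 did not pass the test, against 15.0% higher and 10.8% lower over all genes. In controls 18 rose and 16 fell. The rises included Rrm1 (L_var_00476), a subunit of ribonucleotide reductase, with 138, 252 and 138 CPM at 12 hpf and 706, 799 and 615 CPM at 24 hpf (log2 change 2.01, SE 0.27, edgeR adjusted p = 1.82e-05), and Pcna (L_var_25876), the sliding clamp, with a log2 change of 1.92. The falls included Cycb3 (L_var_23750), a B-type cyclin, with 225, 430.4 and 270.5 CPM at 12 hpf and 82.1, 69.8 and 89.4 CPM at 24 hpf (log2 change -1.94, SE 0.27, edgeR adjusted p = 2.08e-05). Of the histones, 2 of 35 members tested rose, 3 fell and 30 did not pass the test, both shares below those of all genes. Of these calls, those of EhH4_65, EhH2b_68 and EhH3_57 were lost without 1 library (highest edgeR adjusted p 0.129, 0.0692 and 0.127). In controls 2 histones rose and 13 fell.

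**Figure D3:**
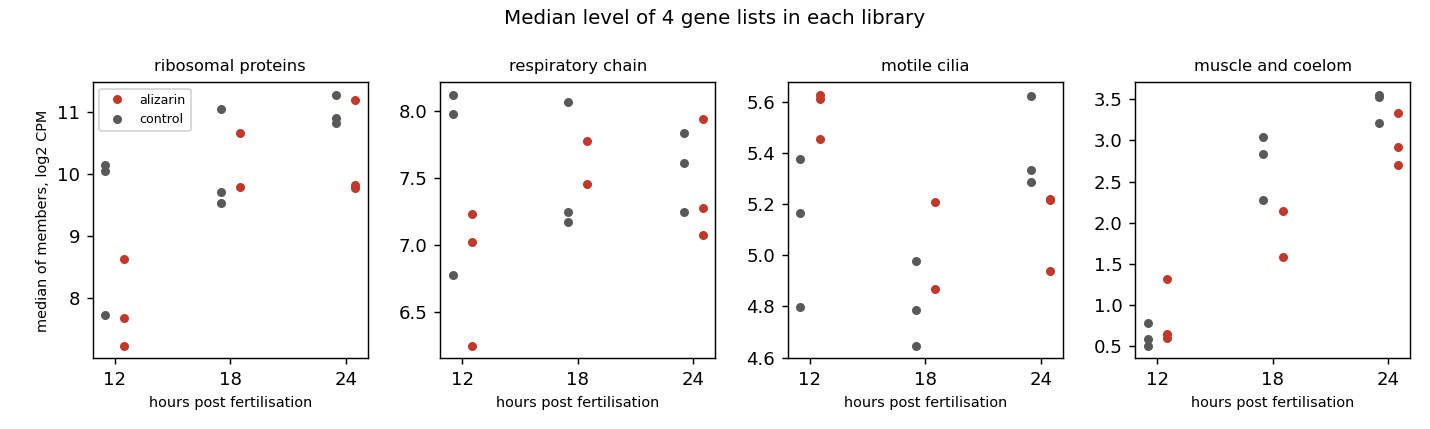
Median log2 CPM over the tested members of 4 gene lists in each library by hours post fertilisation (alizarin red, control grey, each point 1 library). Under alizarin the ribosomal protein and muscle lists are higher and the cilia list lower in every 24 hpf library than in any 12 hpf library, and the respiratory chain groups overlap.

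Redox and detoxification genes rose in about the same number as in controls. Of the antioxidant and peroxide list, 12 of 40 members tested rose, 3 fell and 25 did not pass the test, and in controls 13 rose and 5 fell. The 3 falls under alizarin became 1 without any 1 of the 24 hpf libraries. Gst11 (L_var_26389), a glutathione transferase, measured 0.709, 1.15 and 0.789 CPM at 12 hpf and 98.9, 129 and 227 CPM at 24 hpf (log2 change 7.41, SE 0.63, edgeR adjusted p = 1.31e-07), and Prdx6 (L_var_23576), a peroxiredoxin that removes peroxides, measured 20.7, 11.04 and 24.4 CPM at 12 hpf and 173, 206 and 258 CPM at 24 hpf (log2 change 3.50, SE 0.39, edgeR adjusted p = 2.32e-06). Cat (L_var_26602), catalase, which breaks down hydrogen peroxide, measured 58.7, 49.1 and 82.1 CPM at 12 hpf and 92.4, 101.2 and 119.8 CPM at 24 hpf. All 24 hpf libraries were above all 12 hpf libraries for Cat, but it did not pass (log2 change 0.72, SE 0.27, edgeR adjusted p = 0.0562), while in controls it rose (log2 change 1.31). The difference between the alizarin and control changes of Cat was not called. Of the xenobiotic enzymes, 52 of 207 members tested rose, 9 fell and 146 did not pass the test, with a median log2 change of 0.83, and in controls 55 rose and 14 fell. Cyp46L1 (L_var_24195), a cytochrome P450, measured 8.66, 4.51 and 9.07 CPM at 12 hpf and 81.1, 71.5 and 71.5 CPM at 24 hpf (log2 change 3.33, SE 0.40, edgeR adjusted p = 5.77e-06).

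Ion transport genes, of interest because skeleton formation moves calcium and bicarbonate, were divided. Of that list, 20 of 61 members tested rose, 9 fell and 32 did not pass the test. Slc4a3L (L_var_02818), of the bicarbonate transporter family, measured 129.7, 166.8 and 136 CPM at 12 hpf and 27.02, 19.97 and 17.98 CPM at 24 hpf (log2 change -2.73, SE 0.30, edgeR adjusted p = 1.79e-06), and fell as much in controls (log2 change -2.74). Atp6v1b2 (L_var_19768), a subunit of the proton pump that acidifies vesicles, measured 17.3, 30.2 and 29.8 CPM at 12 hpf and 102, 119 and 117 CPM at 24 hpf (log2 change 2.13, SE 0.25, edgeR adjusted p = 3.46e-06).

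More matrix genes rose than fell. Of the extracellular matrix list, 20 of 52 members tested rose, 6 fell and 26 did not pass the test, with a median log2 change of 1.41. The 6 falls became 2 without alizarin 12 hpf replicate A and 3 without 24 hpf replicate A. Timp1b (L_var_06195), a metalloprotease inhibitor, had 3 reads at 12 hpf and 8.43, 10.9 and 16.03 CPM at 24 hpf, a ratio of 126-fold with a 95% counting interval of 42.7 to 611. The collagens Colp3a (L_var_24301) and Colp4a_2 (L_var_24303) fell, with log2 changes of -1.68 and -1.58. Without alizarin 12 hpf replicate A, their highest library, the edgeR adjusted p was 0.182 and 0.0559, and Colp3a was also lost without 24 hpf replicate A (0.0514). Of the egg and sperm list, 7 of 25 members tested rose, 0 fell and 18 did not pass the test; Vtgn2 (L_var_18948), a yolk protein, measured 313, 92.2 and 100.3 CPM at 12 hpf and 689.6, 575 and 915 CPM at 24 hpf (log2 change 2.11, SE 0.45, edgeR adjusted p = 0.00152).

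**Figure D4:**
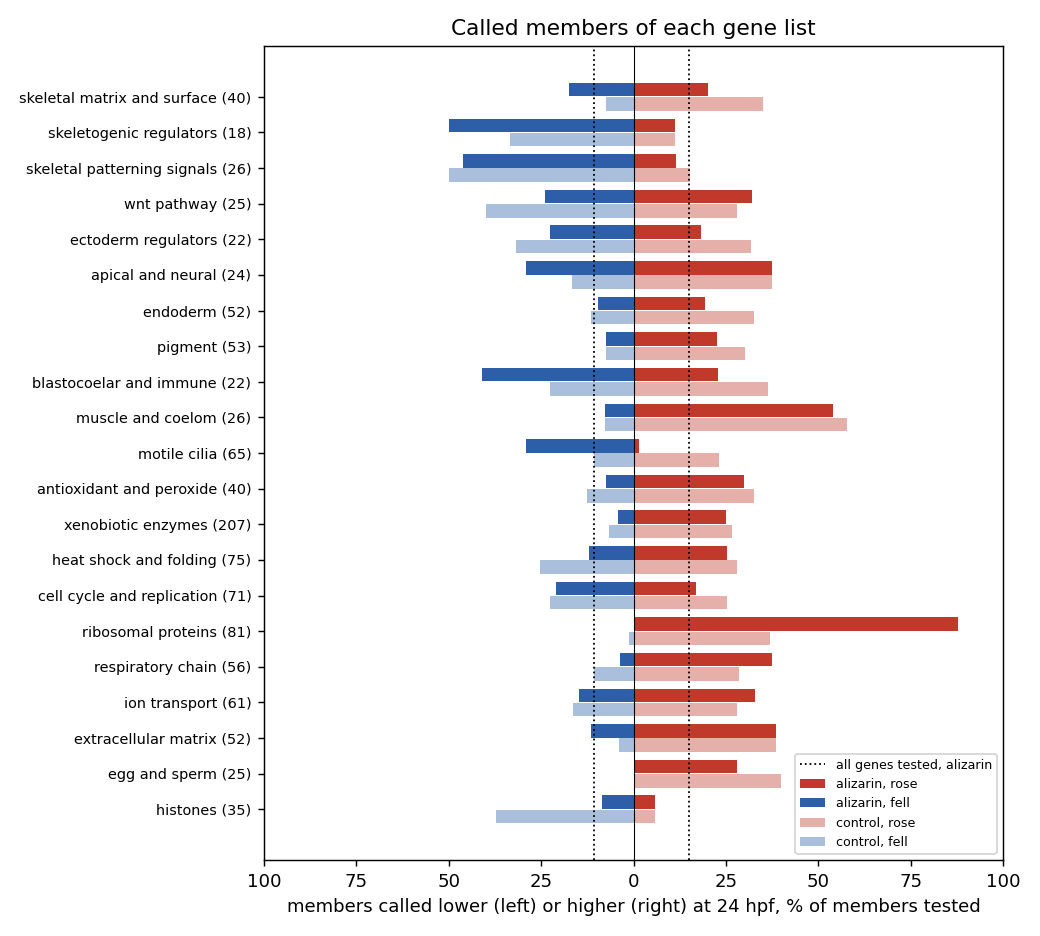
Percent of the tested members of each of 21 gene lists (number tested in brackets) called lower (left) or higher (right) at 24 than at 12 hpf, under alizarin (dark bars) and in controls (pale bars); dotted lines mark the alizarin calls over all genes tested, 15.0% higher and 10.8% lower. Ribosomal proteins and muscle show the tallest dark bars on the right, and skeletogenic regulators and patterning signals on the left.

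Most of the change was in place by 18 hpf. For the 2766 genes that rose under alizarin, the median gene had made 71.5% of its log2 change by 18 hpf in the mean of the 2 alizarin libraries, 62.5% in replicate B and 80.3% in replicate C. For the 1983 that fell it was 72.3%, with 64.1% in replicate B and 81.2% in replicate C. The control genes called in controls had made 58.9% (3396 rises) and 61.3% (2812 falls), and their 3 libraries ranged from 55.1% to 61.1% for rises and from 59.9% to 63.8% for falls. The gene sets differ and alizarin has no replicate A at 18 hpf, so the difference between treatments was not tested.

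The test of the difference between both changes called 21 genes, 0.114% of those tested: 5 (0.0271%) with the alizarin change above the control change and 16 (0.0869%) below it. At an unadjusted p under 0.05 there were 2410 genes, or 13.1%. L_var_10532, which has no symbol, differed most by p: it measured 9.77, 14.7 and 9.86 CPM at 12 hpf and 3.39, 3.93 and 3.25 CPM at 24 hpf under alizarin, and rose from 4.77 ± 1.53 to 145 ± 47.8 CPM in controls (SD, n = 3). The difference was -6.60 on the log2 scale (edgeR adjusted p = 0.00118), and it was the 1 gene still called when only the 12 and 24 hpf groups were fitted. Its own fall under alizarin (log2 change -1.69, SE 0.54, edgeR adjusted p = 0.0249) ended in 4 of the 6 fits without 1 alizarin library (highest adjusted p of edgeR 0.0823).

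Other genes that rose in controls did so less or not at all under alizarin. Clect_106 (L_var_01239), a C-type lectin, measured 1.65, 0.9597 and 2.76 CPM at 12 hpf and 25.2, 23.6 and 12.6 CPM at 24 hpf (log2 change 3.51, SE 0.48, edgeR adjusted p = 1.95e-05), while controls reached 232 ± 32.9 CPM (SD, n = 3, difference -4.35, edgeR adjusted p = 0.0135). Klhl12 (L_var_07203), a kelch adaptor of ubiquitin ligases, measured 2.05, 1.15 and 0.789 CPM at 12 hpf and 1.58, 1.08 and 0.758 CPM at 24 hpf under alizarin, where the groups overlapped, and 8.69 ± 2.76 CPM in controls at 24 hpf (SD, n = 3, difference -3.92, edgeR adjusted p = 0.00464). Pcsk2 (L_var_13346), a convertase that processes neuropeptides, measured 6.93, 3.93 and 5.82 CPM at 12 hpf and 10.2, 6.32 and 5.96 CPM at 24 hpf under alizarin. In controls it rose from 0.759 ± 0.347 to 9.77 ± 1.21 CPM (SD, n = 3), and every alizarin library of 12 hpf was above the first of these means (difference -3.19, edgeR adjusted p = 0.0135). The difference calls of these genes, of C10orf112L and of L_var_10532 held in each of the 12 fits without 1 library, except Pcsk2, which held in 11.

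In the other direction, Timp3 (L_var_06196), a metalloprotease inhibitor, measured 1.89, 1.63 and 0.493 CPM at 12 hpf and 23.03, 26.98 and 14.8 CPM at 24 hpf (log2 change 3.99, SE 0.52, edgeR adjusted p = 1.23e-05), and 2.39 ± 0.427 and 2.42 ± 1.704 CPM in controls (SD, n = 3, difference 3.97, edgeR adjusted p = 0.0311). Every alizarin library of 24 hpf was above every one of 12 hpf, and the call of the difference ended in 4 of the 12 fits without 1 library. Nox4 (L_var_09400), an enzyme that makes hydrogen peroxide, measured 25.2, 30.7 and 16.7 CPM at 12 hpf and 16.7, 19.4 and 19.2 CPM at 24 hpf under alizarin, where the groups overlapped. In controls it fell from 33.5 ± 13.8 to 5.09 ± 1.27 CPM (SD, n = 3, difference 2.32, edgeR adjusted p = 0.0433), a difference lost in 9 of the 12 fits. Cdk9 (L_var_22721), a kinase of transcription elongation, likewise fell in controls (log2 change -2.25) and was not called under alizarin (log2 change -0.56), with a difference lost in 7 of the 12 fits.

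**Figure D5:**
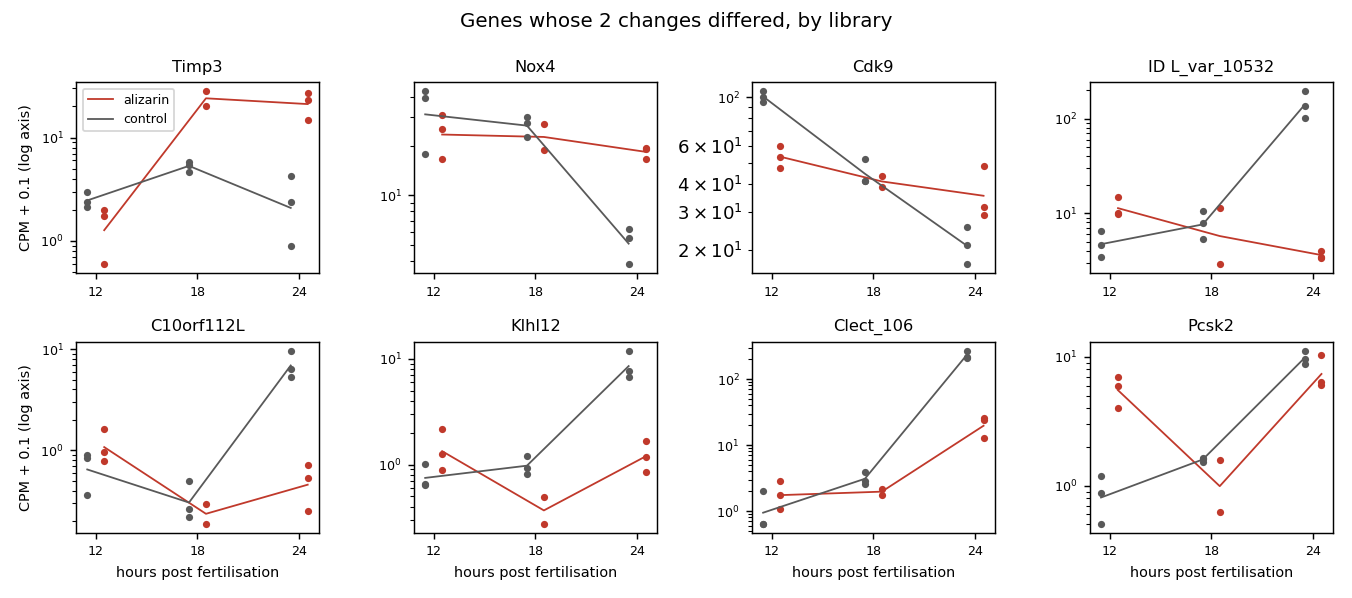
CPM plus 0.1 on a log axis by hours post fertilisation for 8 genes whose changes differed between treatments, each point 1 library and each line the geometric mean of its treatment (alizarin red, control grey). Timp3 is above the controls at 24 hpf in every alizarin library, and L_var_10532 and Clect_106 are below them.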

How the data were processed

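The mRNA libraries of whole embryos were made with a DNBSEQ kit from TRIzol extracts, per the labels' protocols, and reads were aligned with STAR 2.7.1a, per the submitters' processing notes. The genome build, annotation, counting tool and strand setting are not given in the sources used here. Values are unnormalised read counts for each gene and library, as deposited and per the file headers. Its 109578 lines repeat genes for each protein match and reduced to 27231 usable gene IDs, 10465 of them sharing an informative symbol with another ID. Genes were filtered (filterByExpr, minimum count 10), scaled with TMM and fitted with 8 group means on all 23 libraries by edgeR 4.0.16 (quasi-likelihood, robust) in R 4.3.3, leaving 15 residual degrees of freedom. SE is the absolute log2 change divided by the root of F. P-values were Benjamini-Hochberg adjusted over 18419 genes at a threshold of 0.05. The fit was tested on simulated data. Alternatives used DESeq2 1.42.0, other scalings, no filter, a 2-fold threshold, a replicate block and libraries left out. Counting intervals cover counting error only.

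Named genes were the 10 largest separate rises and falls with at least 5 CPM, 6 genes each way by p of the difference, up to 4 per list by p, and 20 fixed symbols; the text gives a part of them. Msclact, Pcna, Cdx, Colp3a, Colp4a_2, Ese, Ccdc39, Msp130r2, C-lectin/PMC1 and L_var_10532 were named after their values were seen. The genes and the 21 lists were chosen with earlier results of these data known.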

Additional observations from a re-analysis of the deposited data

Results flagged for a closer look

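The change from 12 to 24 hpf differed between alizarin and control embryos in 21 genes by edgeR's test of the difference itself. Of those named, the alizarin change was above the control change by 3.97 for Timp3, 2.32 for Nox4, 1.68 for Cdk9, 3.93 for L_var_11472 and 3.59 for L_var_00381, on the log2 scale. The last pair has no symbol, and neither rise under alizarin was called without alizarin 24 hpf replicate C, with log2 changes of 0.78 and 0.80 there. For the genes with the alizarin change below the control change, the log2 difference was -6.60 for L_var_10532, -4.85 for C10orf112L, -3.92 for Klhl12, -4.35 for Clect_106 and -3.19 for Pcsk2. It was -1.79 for Ak9L2, -1.89 for Fkbp15, -6.97 for Sm30F, -1.70 for Ccdc39, -2.65 for Msp130r2 and -4.08 for C-lectin/PMC1. Groups of 3 libraries are too small for the test of single outlying values.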

How the results depend on the processing

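The alizarin change, called in 4749 genes, was called in 2814 when only its own 2 groups were fitted and in 1736 against a 2-fold threshold; the control change, called in 6208, was called in 2455 against that threshold. Leaving out 1 library gave 3861 to 4495 genes under alizarin and 4833 to 5750 in controls, and 2782 of the alizarin calls (58.6%) held in all 6 of those fits. Against the 2-fold threshold the share of rises went from 58.2% to 77.9% under alizarin and from 54.7% to 71.1% in controls. No scaling moved the median log2 change of all genes by over 0.1.

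The 21 calls of the difference depended most on the settings: 12 genes were called with scaling without ribosomal protein genes, 10 with no filter, 349 by DESeq2's Wald test, 3 against a 2-fold threshold and 1 when only the 12 and 24 hpf groups were fitted. Leaving out 1 library gave 5 genes (without control 24 hpf replicate B) to 310 genes (without control 12 hpf replicate A), and 5 of the 21 were called in all 12 fits. The cause was not tested.

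With the replicate letter as a block, 5036 genes were called under alizarin, 6538 in controls and 13 for the difference; in the fit of only the 12 and 24 hpf groups, added after seeing the data, the block gave 3296, 4521 and 1. Same-lettered alizarin libraries of 12 and 24 hpf deviated together with r of 0.0996, 0.288 and 0.105, above every differently lettered pair (-0.178 to 0.0377). Same-lettered control libraries gave -0.247, -0.0412 and -0.123, against -0.157 to 0.257 for differently lettered pairs. The check thus differed between treatments, and the main fit did not take the letters to pair samples.

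Of the named genes called under alizarin, 117 held in all 6 fits that left out 1 library, and none of the named genes called in either fit changed direction under the alternatives run. Genes with few reads at 12 hpf have ratios limited by counting error, and 3 libraries per group with a common biological coefficient of variation of 0.423 limit the differences that can be called.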
